A study of Mus musculus with 39 samples.

Results

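The 12 small RNA libraries described here came from hearts of wild-type male FVB/NJ mice at 6 weeks of age and were 12 of 39 libraries in the series. They were chosen by their titles. FVB/NJ is an inbred laboratory strain, and no mouse of the group carried a transgene or received a treatment per the labels. The protocol says that frozen ventricular apexes were extracted with Trizol, whereas the tissue tag reads whole heart, so the exact piece of heart is uncertain. No label says whether the libraries came from separate animals, and p-values therefore measure the spread between these samples, which may be technical. Libraries were made with a ligation-based small RNA kit and sequenced on HiSeq instruments, and the deposited values are counts for each mature miRNA. Of 1545 rows per file, 143 had a mean of 100 CPM (counts per 1000000 counts of the library) or more and held 99.4% of all counts on average. The last rows inside the limit were miR-652-3p at 107.9 CPM and miR-541-5p at 105.9 CPM. The first rows outside it were miR-450a-2-5p at 98.6 CPM and let-7a-1-3p at 97.5 CPM. Among the 143 rows, 33 shared a mature sequence with another row, and these were summed into 16 levels, which left 126 miRNAs.

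A miRNA is cut from a hairpin precursor, and the arm that is kept guides Argonaute proteins to messenger RNAs through its seed, the bases just after the 5′ end. Arms of one hairpin and hairpins of one cluster are cut from shared transcripts, and miRNAs with the same seed can bind the same sites. In heart tissue, miR-133a, miR-1a, miR-208a, miR-208b and miR-499 are made by heart muscle cells, miR-126a by endothelium, and miR-143 and miR-145a mainly by smooth muscle. miR-451a, miR-144 and miR-486 are typical of red blood cells, and miR-142a, miR-150, miR-223 and miR-155 of white blood cells, so their levels in whole tissue also carry the blood left in it.

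The miRNAs of blood and immune cells that the main patterns turn on are shown first, with their seeds, bases 2 to 8, in capitals. All sequences are from RefSeq on GRCm38.p6, where 105 of the 126 miRNAs were matched.
miR-451a-5p: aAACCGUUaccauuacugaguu
miR-144-3p: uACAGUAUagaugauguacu
miR-142a-5p: cAUAAAGUagaaagcacuacu
miR-142a-3p: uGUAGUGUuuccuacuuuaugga

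The next pairs share a seed, and they show where relatives with one seed differed in how closely they were correlated. miR-25-3p and miR-92a-3p come from separate clusters, miR-146a-5p and miR-146b-5p from separate chromosomes, and miR-208a-3p and miR-208b-3p from introns of neighbouring myosin genes.
miR-25-3p: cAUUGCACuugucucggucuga
miR-92a-3p: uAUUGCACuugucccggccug
miR-146a-5p: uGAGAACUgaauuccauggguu
miR-146b-5p: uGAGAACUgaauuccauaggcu
miR-208a-3p: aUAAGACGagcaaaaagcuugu
miR-208b-3p: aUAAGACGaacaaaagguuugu

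Several libraries stood apart before any pair of miRNAs was examined. Libraries were put into 3 sets, a number chosen and not estimated, by how loci that encode the same mature sequence divided its counts. These shares put replicates 1 to 5 in set 1, replicates 6, 7, 11 and 12 in set 2, and replicates 8 to 10 in set 3. For miR-24-3p, the miR-24-2 locus held 22.0% to 27.0% of the counts in set 1, 16.0% to 25.1% in set 2 and 53.8% to 56.2% in set 3. Sets 1 and 2 thus overlapped for miR-24-3p. They did not for let-7a-5p, where the let-7a-1 locus held 13.1% to 15.3% in set 1 and 19.3% to 20.3% in set 2. Total counts were 4146777 to 6382341 in set 1, 8141310 to 14563754 in set 2 and 7116794 to 12005389 in set 3. Differences between sets made up 71.5% of the variance in log2 level, summed over the 126 miRNAs. The labels give no batch or date, so what separates the sets cannot be told apart from differences between the mice. miR-143-3p took 43.5% of counts in replicate 2 and 43.0% in replicate 6, against 8.92% in the lowest library. Replicate 4 alone held 28.4% of the variance within sets. With 4 sets in place of 3, replicate 4 formed a set of its own. No 2 libraries were alike within sampling noise: among the 66 pairs the lowest ratio of chi-square to its degrees of freedom was 92.0. By library, 0 counts would still permit 0.206 to 0.723 CPM, a floor that covers counting error only.

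The composition was steep. The most abundant row held 16.6% of counts on average, the first 2 held 33.0%, the first 10 held 67.8%, and the first 20 held 82.3%. The 18 rows at 10000 CPM or more held 80.4%, the 44 rows between 1000 and 10000 CPM held 15.8%, and the 81 rows between 100 and 1000 CPM held 3.13%. Ligation favours some sequences over others, so the order of different miRNAs is an order of reads and not of molecules.

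Muscle and vessel miRNAs led that order. miR-22-3p, which is known to act in cardiac growth (chromosome 11, 75463772 to 75463793, GRCm38, in an exon of Tlcd2), took 16.6% ± 3.25 of counts (SD, n = 12). Its lowest share was 11.3%, its median 17.2% and its highest 20.8%. miR-143-3p (chromosome 18, 61649199 to 61649219, between genes) took 16.4% ± 12.6, with a median of 11.5%, with 2 libraries far above the others. miR-133a-2-3p, which restrains smooth muscle genes in heart muscle (chromosome 2, 180398437 to 180398458, between genes), took 7.95% ± 1.35. Its lowest share was 5.36% in replicate 2, where miR-143-3p took 43.5% of counts, and its highest 9.66% in replicate 11. miR-27b-3p, from the miR-23b cluster on chromosome 13, took 4.52% ± 0.963. miR-378a-3p, from an intron of the mitochondrial regulator Ppargc1b on chromosome 18, took 4.38% ± 1.01. The paired loci miR-486a-5p and miR-486b-5p lie on opposite strands of one place on chromosome 8 and took 4.27% ± 1.43 and 4.18% ± 1.31. miR-126a-5p (chromosome 2, 26591365 to 26591385, in an exon of the endothelial gene Egfl7) took 3.46% ± 1.00, and miR-126a-3p took 0.883% ± 0.193.

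The other rows among the 20 most abundant were broadly expressed families. miR-30a-5p held 3.44% ± 0.574, miR-30e-5p 2.64% ± 0.454, miR-30d-5p 2.11% ± 0.339 and miR-30c-2-5p 1.02% ± 0.317, all of the miR-30 family. miR-26a-2-5p, from an intron of Ctdsp2, held 2.58% ± 0.420 and miR-148a-3p held 1.89% ± 0.345. miR-10a-5p, from a Hox cluster, held 1.74% ± 0.786. The relatives miR-181a-2-5p and miR-181a-1-5p held 1.03% ± 0.236 and 1.02% ± 0.175. miR-99b-5p held 1.19% ± 0.628 and miR-191-5p 0.995% ± 0.632. Replicates 8 to 10 were the 3 highest libraries for miR-99b-5p, miR-191-5p, miR-10a-5p, miR-126a-5p and miR-27b-3p, the last by a narrow margin.

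**Figure D1:**
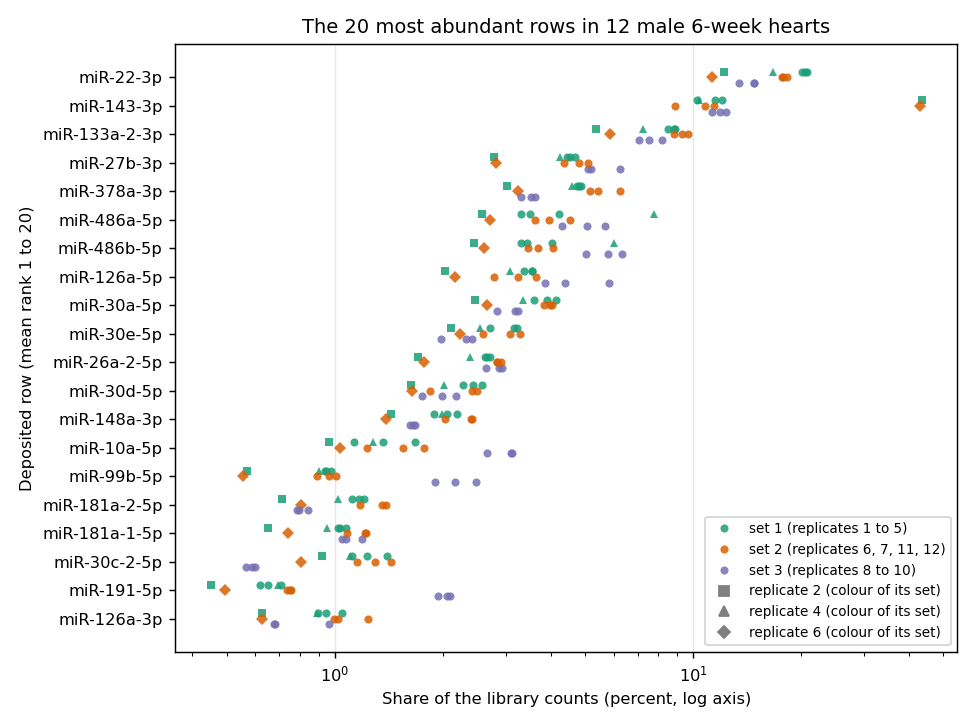
Share of each library's counts (percent, log axis) taken by the 20 most abundant rows; each point is 1 library, colours give the library set, and squares, triangles and diamonds mark replicates 2, 4 and 6. miR-143-3p in replicates 2 and 6, at 43.5% and 43.0%, lies far to the right, the other rows lie to the left in these 2 libraries, and miR-99b-5p, miR-191-5p and miR-10a-5p are highest in set 3.

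By list, smooth muscle miRNAs held 16.6% ± 12.6 of counts, muscle miRNAs 9.67% ± 1.60, red blood cell miRNAs 9.08% ± 3.04 and the miR-30 family 9.65% ± 1.68. Nearly all of the red blood cell share was miR-486-5p, which is also made in muscle, whereas miR-451a-5p held 0.486% ± 0.457. miR-378 rows held 4.43% ± 1.02, endothelial miRNAs 4.34% ± 1.07, the let-7 family 2.48% ± 0.522 and fibroblast and matrix miRNAs 0.944% ± 0.154. White blood cell miRNAs held 0.361% ± 0.138, from 0.203% in replicate 6, where miR-143-3p took 43.0% of counts, to 0.715% in replicate 4. Scaled by TMM factors, as described below, their sum was lowest in replicate 5, at 2330 CPM, with replicate 6 at 2983 CPM. Epithelial miRNAs held 0.0175% ± 0.00304. The defining miRNAs of the labelled tissue were present: the heart muscle miRNAs miR-208a-3p and miR-499-5p had median levels of 1136 and 1517 CPM, while miR-206-3p, which marks skeletal muscle, was at 0 counts in 11 libraries and under the floor of 3 counts in replicate 12. These levels and all that follow are CPM scaled by TMM factors, which keeps the 2 libraries filled by miR-143-3p comparable with the others.

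Which miRNAs rise and fall together was asked of deviations from the mean of each library set, on log2 levels with 0.5 CPM added. For each of the 7875 pairs, Pearson's r over the 12 libraries was set against all 17280 exchanges of libraries within sets, which is a two-sided exact permutation test whose smallest possible p is 5.8e-05. No pair passed a Benjamini-Hochberg adjusted p of 0.05, with 0% of pairs called above 0 and 0% below 0. A single pair could not have passed even at the smallest possible p, because the adjustment covers 7875 pairs. Many pairs would have had to reach very low p together, so the 0% says little about any single pair. The smallest adjusted p was 0.106, and with Spearman's rho it was 0.144. At an unadjusted p under 0.05 there were 783 pairs with r above 0, which is 9.94% of all pairs, and 252 with r below 0, which is 3.2%. The Spearman test gave 874 such pairs in both directions together. The number below 0 depended on single libraries, with 396 without replicate 3, 160 without replicate 8, 164 without replicate 10 and 134 without replicate 11. The values of r ran from -0.951 to 0.991 with a median of 0.0924, and 57.7% of pairs were above 0. No correlation below therefore passed the test over all pairs, and each is given as a measured value.

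The pairs with the smallest unadjusted p, over 50 kb apart or on different chromosomes, were mixed in kind. Blood and immune miRNAs made up 3 of the 10, namely miR-142a-5p with miR-144-3p (r = 0.990), miR-144-5p with miR-142a-3p (r = 0.980) and miR-451a-5p with miR-142a-3p (r = 0.972). The others above 0 were miR-26b-5p with miR-24-3p (r = 0.986), miR-99b-5p with miR-99a-5p (r = 0.940), miR-181a-5p with miR-125b-2-3p (r = 0.900), miR-133a-3p with miR-101a-3p (r = 0.821), miR-181a-2-3p with miR-204-5p (r = 0.802) and miR-15a-5p with miR-425-5p (r = 0.746). The only pair of these 10 below 0 was miR-199a-5p with miR-203-3p (r = -0.951, rho = -0.986). All 10 kept their sign in every fit that left out 1 library. The list ended within a tie, since miR-30e-3p with miR-30a-3p (r = 0.897), outside the 10, had the same p as the pairs of miR-142a-3p.

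Red blood cell miRNAs had the highest median r of the 7 lists with more than 1 pair, although without replicate 4 the let-7 family was higher, at 0.704 against 0.647. miR-451a-5p, which matures without Dicer and is needed late in red cell formation (chromosome 11, 78073186 to 78073207, between genes), had a lowest level of 2560 CPM, a median of 3563 CPM and a highest level of 17064 CPM. The highest library was replicate 4, and the next highest, replicate 2, stood at 5139 CPM. miR-144-3p, from the same cluster (chromosome 11, 78073047 to 78073066), had a lowest level of 351.3 CPM, a median of 459.9 CPM and a highest level of 2173 CPM. Replicate 4 was again the highest, with replicate 9 next at 812.9 CPM. miR-486-5p, from an intron of the red cell gene Ank1, ran from 57443 CPM in replicate 1 through a median of 78246 CPM to 122596 CPM in replicate 4. Here replicate 10 came close, at 115572 CPM.

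In replicate 4, miR-144-3p was 5.13-fold, miR-144-5p 5.04-fold, miR-451a-5p 4.53-fold and miR-486-5p 1.86-fold above the mean of the other libraries of set 1. All 5 list members were higher in it, with a median difference of 2.18 on the log2 scale against -0.04 for all 126 miRNAs. In replicate 4 as a whole, 7 miRNAs, or 5.56%, were over 1 log2 unit above the rest of the set and 0% were as far below it. Those 7 were the 3 arms of miR-144 and miR-451a, the 2 arms of miR-142a, miR-25-3p and miR-93-5p. Of the 6 white blood cell miRNAs at 100 CPM or more, 4 were higher in replicate 4, with a median difference of 0.02 on the log2 scale. Below that limit, miR-223-3p was at 73.0 CPM in replicate 4, against 59.4 to 66.6 CPM in the rest of set 1. miR-155-5p was at 48.2 CPM, against 46.9 to 63.5 CPM. A larger share of blood in that tissue and more miRNA per blood cell cannot be told apart in bulk RNA.

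Pairs within the list had a median r of 0.885 over 10 pairs, and 8 of 10 were above 0 at an unadjusted p under 0.05, against 9.94% of all pairs. The list holds only the miR-144 and miR-451a cluster and miR-486, so some of its pairs are arms of 1 hairpin or lie within 10 kb. Over all pairs of those 2 classes, 17.4% and 34.1% had such a p. Without replicate 4 the median was 0.647, against 0.166 for all pairs. For miR-451a-5p with miR-144-3p, r was 0.963 (exact permutation p = 0.00150, adjusted p = 0.150), rho was 0.797 (exact permutation p = 0.00446), and r was 0.795 without replicates 4 and 5, the 2 libraries farthest from the median. For miR-451a-5p with miR-144-5p, r was 0.991 (rho = 0.944), and it was 0.943 without the same 2 libraries. With miR-486-5p, miR-451a-5p had r = 0.899 (rho = 0.510), and 0.503 without those libraries. Without replicate 4, miR-486-5p with miR-144-3p had r = 0.778 and the 2 arms of miR-144 had r = 0.749 (miR-144-3p with miR-144-5p).

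**Figure D2:**
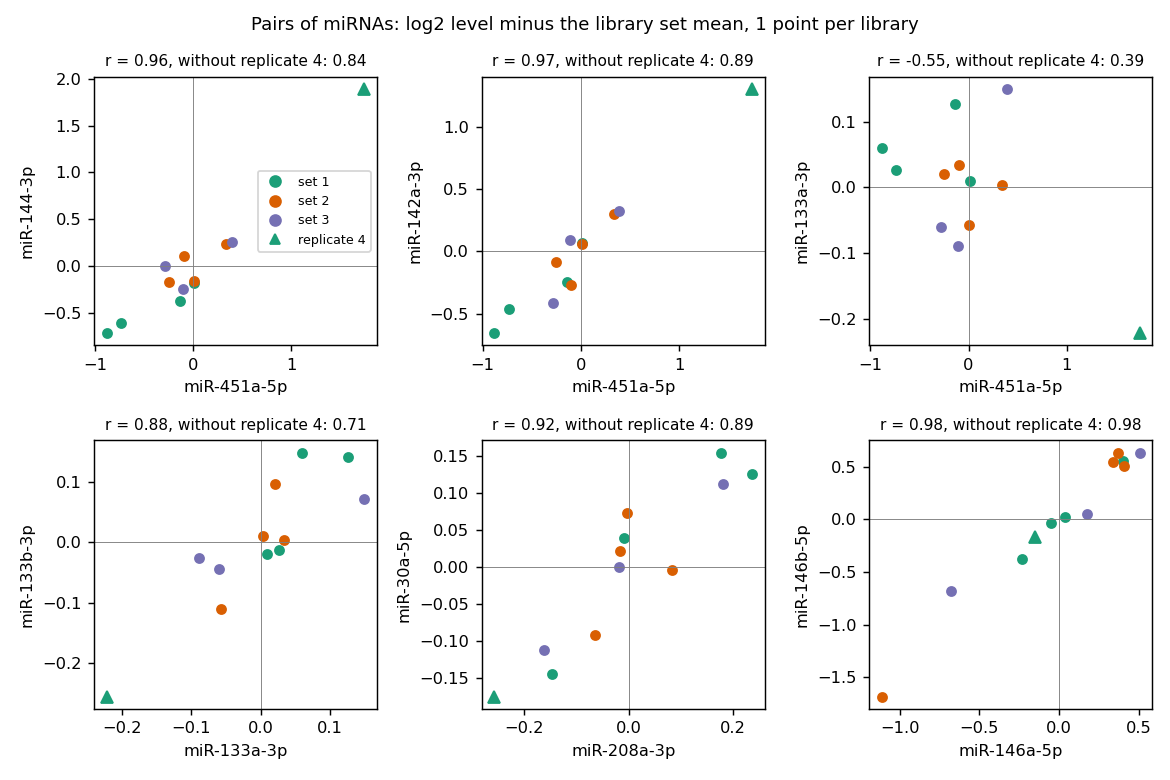
Log2 level minus the library set mean for 6 pairs of miRNAs; each point is 1 of 12 libraries, colours give the set and the triangle is replicate 4. Replicate 4 lies alone at the end of the 3 panels with miR-451a-5p, where r changes from 0.963 to 0.838, from 0.972 to 0.887 and from -0.552 to 0.391 when it is left out, while miR-146a-5p with miR-146b-5p keeps r = 0.985.

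White blood cell miRNAs did not move as one group. Over the 15 pairs of the 6 listed members at 100 CPM or more, the median r was 0.148, and 2 pairs had an unadjusted p under 0.05 above 0, or 13.3% against 9.94% of all pairs. miR-142a-5p, from a locus active across blood cell lineages (chromosome 11, 87756869 to 87756888, in an intron of Mir142hg), had a lowest level of 1129 CPM, a median of 1497 CPM and a highest level of 4674 CPM in replicate 4. miR-142a-3p ran from 63.5 CPM through 119.8 CPM to 393.9 CPM, also in replicate 4. Both arms went with the red cell miRNAs: miR-144-3p with miR-142a-5p had r = 0.990 (rho = 0.972, unadjusted exact permutation p = 0.000116), and r was 0.938 without replicate 4. For miR-451a-5p with miR-142a-3p, r was 0.972 (rho = 0.916) and 0.887 without replicate 4. The other highest partners of miR-142a-3p were miR-144-5p (0.980) and miR-93-5p (0.968), at 0.935 and 0.881 without replicate 4. Its lowest were miR-27a-3p (-0.861), miR-322-3p (-0.753) and miR-30d-3p (-0.704), and without replicate 4 they were -0.472, -0.798 and -0.284.

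miR-150-5p, a miRNA of mature lymphocytes (chromosome 7, 45121762 to 45121783, between genes), took another course. It ran from 355.5 CPM in replicate 8 through a median of 938.4 CPM to 1283 CPM in replicate 11, and replicate 4 was at 1.00 times the rest of its set. With miR-142a-3p its r was 0.0661, and with miR-451a-5p it was 0.188. Its 3 highest values of r were with let-7b-3p (0.908), let-7d-3p (0.823) and miR-423-3p (0.796). Its 3 lowest were with miR-146b-5p (-0.602), miR-146a-5p (-0.549) and miR-126a-5p (-0.475). Within sets its level also went with log2 total counts (r = 0.895), as did let-7b-3p (r = 0.812), and the part of depth in these correlations was not tested.

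The inducible immune miRNAs miR-146a-5p and miR-146b-5p, which dampen NF-κB signalling, had a high r with each other. miR-146a-5p ran from 51.5 CPM in replicate 11 through a median of 136.8 CPM to 1247 CPM in replicate 8. miR-146b-5p ran from 8.63 CPM in replicate 11 through 41.7 CPM to 486.1 CPM in replicate 8. Replicates 8 to 10 were the 3 highest libraries for both, without overlap. Within sets their r was 0.985 (rho = 0.930, unadjusted exact permutation p = 0.000289), and it was 0.977 without replicates 10 and 11. Their mature sequences are near-identical, and how reads matching more than 1 locus were assigned is not given in the sources used here. miR-342-3p, also of lymphocytes, ran from 82.8 to 239.4 CPM. Below the limit, miR-223-3p, the neutrophil and monocyte miRNA, had a mean of 86.8 CPM and miR-155-5p, of activated lymphocytes, 57.6 CPM.

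Grouping by average linkage of 1 - r, cut at 0.3, joined 18 miRNAs into 1 group that held 4 of the 5 red cell arms, both arms of miR-142a, miR-25-3p, miR-93-5p, miR-92a-3p, miR-15a-5p, miR-21a-5p, let-7i-5p, miR-103-3p, miR-140-3p, miR-221-3p, miR-423-5p, miR-484-5p and miR-532-5p. All 18 were higher in replicate 4 than in the rest of its set, by 1.27-fold to 5.13-fold, against 55 of all 126, but the values of replicate 4 helped to form the group and nothing is read from this. Without replicate 4 the 153 pairs of that group had a median r of 0.446, from -0.579 to 0.958. Over all 126 miRNAs there were 38 groups with 17 single miRNAs, and 34 groups with 11 single miRNAs without replicate 4. Groups of this kind describe these libraries and were not tested.

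Members of the miR-17 and miR-106b clusters, known for driving cell division, belonged to that group. miR-25-3p (chromosome 5, 138165332 to 138165353, in an exon of Mcm7) ran from 1102 CPM through 1558 CPM to 3899 CPM, with replicate 4 at 2.46-fold the rest of its set. miR-93-5p, from the same host gene, ran from 395.2 through 567.4 to 1264 CPM, at 2.27-fold in replicate 4. Although the pair had r = 0.857, r was -0.128 without replicate 4, so that the relation rested on this library. miR-25-3p with its seed relative miR-92a-3p had r = 0.937 and 0.725 without replicate 4. For miR-144-3p with miR-25-3p, r was 0.981 (rho = 0.958) and 0.714 without replicates 4 and 5. For miR-451a-5p with miR-93-5p, r was 0.937 (rho = 0.776) and 0.620 without the same 2 libraries.

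Most of the lowest values of r of the red cell miRNAs moved to near 0 without replicate 4, with miR-322-3p as an exception. The 3 lowest partners of miR-451a-5p were miR-27a-3p (r = -0.830), miR-133b-3p (-0.695) and miR-322-3p (-0.666). Without replicate 4 they were -0.286, -0.0319 and -0.648. The 3 lowest partners of miR-144-3p were miR-27a-3p (-0.820), miR-133b-3p (-0.735) and miR-22-3p (-0.730), and without replicate 4 they were 0.00217, 0.0142 and -0.0542. For miR-486-5p the highest partners were miR-142a-5p (0.949), miR-144-3p (0.935) and miR-25-3p (0.924), and the lowest were miR-133a-5p (-0.722), miR-22-3p (-0.663) and miR-29c-3p (-0.656), at -0.185, -0.0592 and -0.146 without replicate 4. Across the 40 pairs of a muscle with a red blood cell miRNA the median r was -0.456, and 4 of 40 pairs had an unadjusted p under 0.05 below 0, against 3.2% of all pairs. Without replicate 4 the median was 0.168. The sign of that median thus depended on 1 library.

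**Figure D3:**
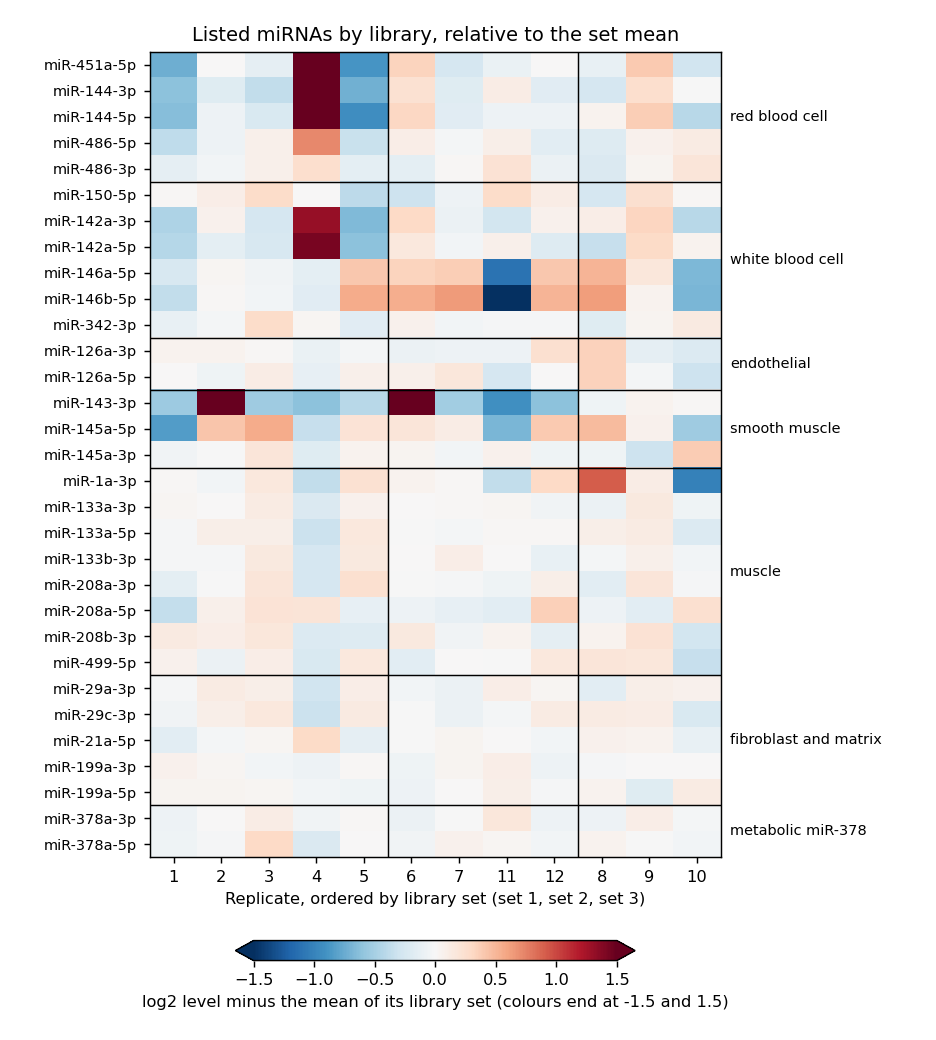
Log2 level minus the mean of its library set for the listed miRNAs at 100 CPM or more (rows, by list) in the 12 libraries (columns, by set; black lines part sets and lists). Red cell arms and both arms of miR-142a are dark red in replicate 4, miR-143-3p in replicates 2 and 6, and miR-146a-5p and miR-146b-5p are dark blue in replicate 11.

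Over all 12 libraries, the arms of the endothelial miR-126a had an r above the median of 0.499 for pairs of arms from 1 hairpin. miR-126a-5p ran from 25321 CPM in replicate 11 through a median of 31515 CPM to 58062 CPM in replicate 8. miR-126a-3p, the arm that restrains inhibitors of VEGF signalling, ran from 6560 CPM in replicate 10 through 8784 CPM to 11496 CPM in replicate 12. Their r was 0.630 (exact permutation p = 0.233; rho = 0.559, exact permutation p = 0.154), and 0.140 without replicate 8. The other endothelial member, miR-126b-3p, was under the floor of 3 counts in every library.

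miR-126a-5p had its highest r with miR-541-5p (0.968), miR-24-3p (0.919) and miR-26b-5p (0.912), and its lowest with miR-486-3p (-0.744), miR-98-5p (-0.729) and let-7g-5p (-0.729). For miR-541-5p, of the imprinted cluster on chromosome 12, rho was 0.902 and r was 0.932 without replicates 8 and 10. The highest partners of miR-126a-3p were miR-152-3p (0.919), miR-335-5p (0.896) and miR-1a-3p (0.796), and its lowest were miR-490-3p (-0.830), miR-30a-3p (-0.802) and miR-192-5p (-0.766). Without its 2 farthest libraries, replicates 8 and 12, the highest values were 0.617, 0.621 and 0.506, and the lowest were -0.592, -0.0264 and -0.300. All 10 pairs of an endothelial with a red blood cell miRNA were below 0, with a median r of -0.344, and 4 of 10 had an unadjusted p under 0.05, against 3.2% of all pairs. Without replicate 4 their median was -0.427, but the miR-451a-5p pairs moved to near 0, from -0.203 to 0.0215 with miR-126a-5p and from -0.193 to -0.0174 with miR-126a-3p.

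The 3 pairs of smooth muscle miRNAs at 100 CPM or more had a median r of 0.0474, and none had an unadjusted p under 0.05. miR-143-3p ran from 81207 CPM in replicate 11 through 106493 CPM to 631877 CPM in replicate 6, with replicate 2 at 610954 CPM. Among the 126 it was the only miRNA over 1 log2 unit above the rest of its set in replicate 2, which is 0.794% of the 126, and likewise in replicate 6, again 0.794%. None lay as far below in replicate 2 (0%) or in replicate 6 (0%). miR-143-5p, the other arm, was under the limit and not among the 126, but it was also high in these 2 libraries, at 242.1 CPM in replicate 2 and 267.3 CPM in replicate 6 against 25.6 to 40.6 CPM in the others. miR-145a-5p, which keeps smooth muscle in its contractile state, ran from 251.0 CPM in replicate 10 through 650.5 CPM to 1123 CPM in replicate 12. miR-145a-3p ran from 486.1 CPM in replicate 4 to 1856 CPM in replicate 10.

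Although miR-143 and miR-145a lie within 10 kb on chromosome 18, miR-143-3p with miR-145a-5p had r = 0.343 (rho = 0.336) and 0.467 without replicates 2 and 6. The 2 arms of miR-145a had r = -0.125. The highest values for miR-143-3p were with miR-215-5p (0.729), miR-10b-5p (0.617) and miR-30e-5p (0.517), and without replicates 2 and 6 they were -0.664, -0.305 and 0.592. Its lowest values were with let-7d-5p (-0.603), miR-98-5p (-0.598) and let-7a-5p (-0.567). miR-145a-5p went with miR-30e-5p (0.898), miR-30d-5p (0.896) and miR-322-5p (0.893), each at 0.843 or above without its 2 farthest libraries. Its lowest partners were miR-434-3p (-0.684), miR-151-5p (-0.636) and miR-127-3p (-0.630).

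Heart muscle miRNAs had a median r above that of all pairs. Among 28 pairs of the 8 listed members, the median r was 0.438, and 7 pairs, or 25.0%, had an unadjusted p under 0.05 above 0, against 9.94% of all pairs. Without replicate 4 the median was 0.271, against 0.166 for all pairs. miR-133a-3p ran from 69774 CPM in replicate 4 through a median of 86630 CPM to 94453 CPM in replicate 9. miR-133b-3p, its near-identical relative from chromosome 1, ran from 303.8 CPM in replicate 4 through 411.4 CPM to 461.6 CPM in replicate 9. Their r was 0.878 (rho = 0.832, unadjusted exact permutation p = 0.00179) and 0.709 without replicate 4. Because they differ little in sequence, reads may have been split between them in a way the sources used here do not give.

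miR-1a-3p, which shares its precursor transcripts with miR-133a, had a lower r with miR-133a-3p than with miR-133a-5p. It ran from 2465 CPM in replicate 4 through 3456 CPM to 17376 CPM in replicate 8, and all 3 libraries of set 3 lay above all others. With miR-133a-3p its r was 0.169 (rho = 0.203), -0.0593 without replicate 4 and 0.640 without replicate 8. With miR-133a-5p its r was 0.673, and 0.758 without replicate 4. The lowest value of that pair when any library was left out was 0.449, without replicate 10. The highest partners of miR-1a-3p were miR-24-3p (0.941), miR-26b-5p (0.935) and miR-541-5p (0.908), and its lowest were miR-486-3p (-0.767), miR-30a-3p (-0.758) and miR-434-3p (-0.757). With miR-126a-5p its r was 0.891 (rho = 0.762), and 0.743 without replicates 8 and 10. For miR-133a-3p the highest partners were miR-133b-3p, miR-181c-5p (0.868) and miR-30d-3p (0.825). Its lowest were miR-25-3p (-0.649), miR-140-3p (-0.639) and miR-93-5p (-0.638), which became 0.379, 0.0768 and 0.179 without replicate 4.

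The miRNAs inside myosin genes differed among themselves. miR-208a-3p, from an intron of the adult myosin gene Myh6 (chromosome 14, 54949072 to 54949093), ran from 813 CPM in replicate 4 through 1136 CPM to 1429 CPM in replicate 9. miR-208b-3p, from an intron of Myh7 (chromosome 14, 54975710 to 54975731), ran from 823.8 CPM in replicate 12 through 1038 CPM to 1521 CPM in replicate 9. Their r was 0.139, and -0.141 without replicate 4, although they share a seed. miR-208a-3p went with miR-30a-5p (0.924; rho = 0.902; 0.893 without replicates 4 and 5), miR-125b-2-3p (0.766) and miR-133a-3p (0.765). Its lowest partners were miR-127-3p (-0.691), miR-25-3p (-0.581) and miR-92a-3p (-0.544), and without replicate 4 they were -0.608, -0.109 and -0.0965. miR-208b-3p went with miR-26a-5p (0.708), miR-28a-5p (0.681) and miR-133a-3p (0.622), and lowest were miR-208a-5p (-0.482), miR-151-5p (-0.468) and miR-98-5p (-0.435). Without replicate 10 these lowest values were -0.317, 0.0266 and -0.278. The highest values of miR-208b-3p were 0.172, 0.337 and 0.407 without replicates 4 and 10. None of these highest pairs had an unadjusted exact permutation p under 0.05 over all libraries.

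miR-499-5p, from an intron of Myh7b (chromosome 2, 155622893 to 155622913), ran from 1149 CPM in replicate 10 through 1517 CPM to 1693 CPM in replicate 12. It went with miR-22-3p (0.827; rho = 0.860), miR-29c-3p (0.821) and miR-1a-3p (0.818), but without replicates 4 and 10 these were 0.514, 0.417 and 0.357. Its lowest partners were miR-127-3p (-0.689), miR-434-3p (-0.663) and miR-148b-3p (-0.636). miR-22-3p ran from 129049 CPM in replicate 10 through 165984 CPM to 192385 CPM in replicate 3. It was highest with miR-26a-5p (0.933, rho = 0.797), miR-29c-3p (0.917) and miR-133a-5p (0.903). Without replicates 4 and 10 these values of r were 0.732, 0.559 and 0.251. Its lowest were with miR-25-3p (-0.784), miR-144-3p (-0.730) and miR-142a-5p (-0.722), and without replicate 4 they were -0.331, -0.0542 and -0.0934.

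**Figure D4:**
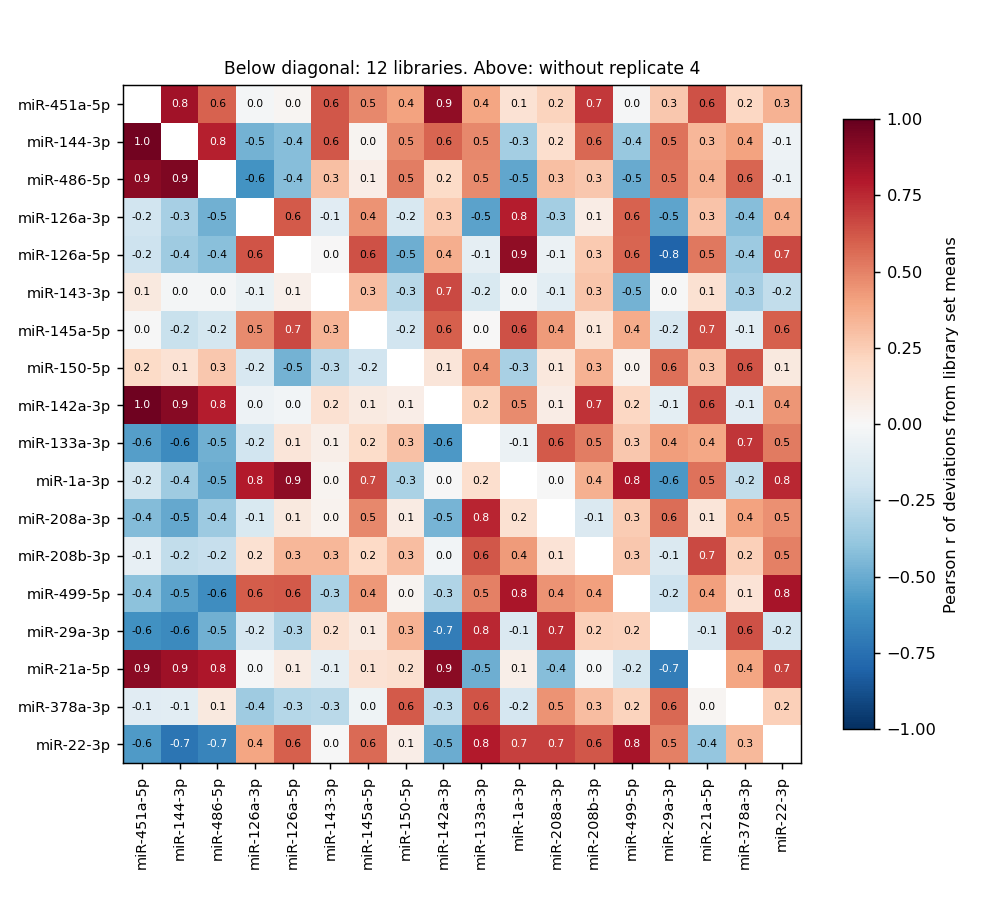
Pearson r between 18 miRNAs chosen for their cell of origin, on deviations from library set means, below the diagonal with 12 libraries and above it without replicate 4, rounded to 1 decimal. The block of miR-451a-5p, miR-144-3p, miR-486-5p and miR-142a-3p is red below the diagonal, and its blue values with miR-133a-3p, miR-208a-3p and miR-22-3p fade or turn red above it.

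Fibroblast and matrix miRNAs gave no common course. Their 10 pairs had a median r of -0.102, and none had an unadjusted p under 0.05 above 0. miR-29a-3p, which represses collagen genes, ran from 1392 CPM in replicate 8 through 2378 CPM to 2722 CPM in replicate 11, and miR-21a-5p, known from cardiac fibroblasts and many other cells, ran from 2122 CPM in replicate 10 to 3358 CPM in replicate 4. miR-29a-3p went with miR-101a-3p (0.841), miR-27a-3p (0.806) and miR-133a-3p (0.757), and its lowest partners were miR-15a-5p (-0.835), miR-93-5p (-0.815) and miR-140-3p (-0.807). Without replicate 4 those lowest values were -0.503, -0.424 and -0.423. The highest values of miR-29a-3p were 0.576, -0.187 and 0.0967 without replicates 4 and 8, its farthest libraries. miR-21a-5p instead went with miR-103-3p (0.984; rho = 0.958), miR-93-5p (0.948) and miR-140-3p (0.934), and was lowest with miR-27a-3p (-0.786), miR-29a-3p (-0.694) and miR-30d-3p (-0.609). The lowest values of miR-21a-5p without replicate 4 were -0.247, -0.142 and -0.0658, and with miR-103-3p its r was 0.948.

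miR-378a-3p ran from 32991 CPM in replicate 8 through 42584 CPM to 56792 CPM in replicate 11. It went with miR-101a-3p (0.850), miR-320-3p (0.818) and let-7c-5p (0.757), and its lowest partners were miR-146b-5p (-0.542), miR-16-5p (-0.485) and miR-146a-5p (-0.480). Without replicate 11 these were 0.123, -0.247 and 0.138. Its own level went with log2 total counts within sets (r = 0.810), and so did miR-320-3p (0.771) and let-7c-5p (0.749). The part of depth was not tested. Epithelial miRNAs were low: miR-203-3p was the only one past the limit, at a median of 124.4 CPM, and miR-141-3p had a mean of 26.2 CPM and miR-200b-3p 4.88 CPM.

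The partners named above for 18 of 19 chosen miRNAs come to 54 highest and 54 lowest values of r. Their adjusted p ran from 0.106 to 0.668 by Pearson and from 0.144 to 0.848 by Spearman. Among the highest, 49 of 54 had an unadjusted p under 0.05, and without the 2 farthest libraries 51 stayed above 0 and 43 at 0.5 or more. Among the lowest, 22 of 54 had an unadjusted p under 0.05, and without the 2 farthest libraries 45 stayed below 0 but only 16 at -0.5 or less. Without replicate 4, all 54 of the highest stayed above 0 and 49 of the lowest below 0. All of these were picked as extremes.

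Related miRNAs had medians of r above that of all pairs. The 44 pairs of neighbouring miRNAs within 10 kb had a median r of 0.528, and 15 had an unadjusted p under 0.05 above 0, or 34.1% against 9.94% of all pairs. The 23 pairs of arms from 1 hairpin, in which a summed level also holds other loci, had a median of 0.499, and 4, or 17.4%, had such a p. For the 10 pairs 10 to 50 kb apart the median was 0.449. For 64 pairs with the same seed over 50 kb apart it was 0.540, and 23 had such a p, or 35.9%. Without replicate 4 these 4 medians were 0.490, 0.440, 0.355 and 0.660, against 0.166 for all pairs. Pairs in these classes share members, so they are not independent. The let-7 family gave more of the same-seed pairs than any other seed. Its limits, which are its correlations with total counts and possibly shared reads, are given below.

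Neighbours ranged from close to opposite. The highest were miR-451a-5p with miR-144-5p (0.991) and with miR-144-3p (0.963). Next came let-7f-5p with miR-98-5p (0.926, unadjusted exact permutation p = 0.000926) and miR-181a-5p with miR-181b-5p (0.914). They were followed by let-7f-5p with let-7a-5p (0.894), let-7a-5p with let-7d-5p (0.891), let-7f-5p with let-7d-5p (0.888) and miR-127-3p with miR-434-3p (0.874). The cell cycle repressors miR-16-5p and miR-15a-5p had r = 0.834, and 0.805 without replicate 10, the lowest when any library was left out. The lowest was miR-27b-3p with miR-24-3p (-0.600), of which miR-24-3p is summed over 2 clusters. Arms of 1 hairpin ranged from 0.961 for miR-144-3p with miR-144-5p, and 0.881 for both arms of miR-142a, down to -0.324 for let-7b-5p with let-7b-3p, leaving aside levels summed over several loci. Without replicate 4 the arms of miR-142a had r = 0.440.

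**Figure D5:**
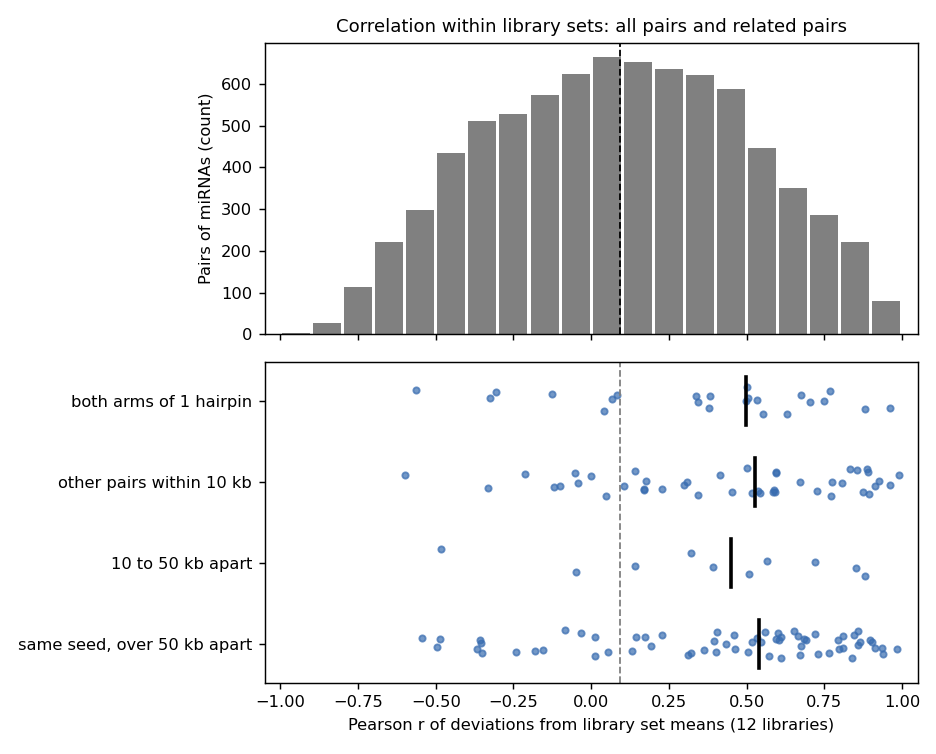
Top, the number of pairs of miRNAs by Pearson r of deviations from library set means, over all 7875 pairs. Bottom, r of related pairs, 1 point each, with a black line at the class median and a dashed line at the median of all pairs, 0.0924; the class medians lie between 0.449 and 0.540.

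The let-7 family, which restrains growth, had 36 pairs with a median r of 0.607, and 16, or 44.4%, had an unadjusted p under 0.05 above 0, against 9.94% of all pairs. Without replicate 4 the median was 0.704. let-7a-5p with let-7g-5p had r = 0.912, and let-7b-5p was the exception, with r below 0 to all 8 other members, down to -0.544 with let-7e-5p. Within sets let-7g-5p (0.802), let-7a-5p (0.801), let-7c-5p (0.749), let-7f-5p (0.742) and let-7d-5p (0.716) also went with log2 total counts, whose part was not tested. The miR-30 family had 10 pairs with a median of 0.694, all above 0, and 6 of 10 had such a p, against the same 9.94%. Near-identical sequences within both families could share reads.

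Libraries of set 3 differed in level from the other 9 in many miRNAs. In replicates 8 to 10, 29 of 126 miRNAs, or 23%, lay above all other libraries, and 36, or 28.6%, lay below all others. miR-146b-5p was 10.5-fold, miR-146a-5p 8.32-fold, miR-99a-5p 4.35-fold, miR-191-5p 3.14-fold and miR-1a-3p 2.90-fold higher. miR-149-5p was at 0.331 times, miR-150-5p at 0.429 times, miR-30b-5p at 0.447 times and miR-101a-3p at 0.552 times the level of the others. Sets were made from shares between loci and not from levels, yet they are not groups of the study, so these differences carry no test. miR-142a-5p and miR-486-5p overlapped between set 3 and the rest.

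Spread within sets was far above counting error for most miRNAs. The median SD of log2 level within sets was 0.15, against a counting SD of 0.02, and the median ratio of the 2 was 7.15. The 5 most variable were miR-143-3p (SD 1.12), miR-144-5p (0.76), miR-146b-5p (0.75), miR-144-3p (0.74) and miR-451a-5p (0.73), of vessel wall, blood and immune cells. The 5 least variable were miR-181d-5p (0.05), miR-181b-5p (0.06), miR-199a-3p (0.06), miR-181c-3p (0.06) and let-7c-5p (0.06), of which 3 belong to the miR-181 family. For miR-181d-5p the spread was 1.89 times its counting SD of 0.03.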

How the data were processed

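Small RNA of 12 male 6-week hearts was analysed. The authors deposited whole-number counts per mature miRNA row, 1 file per library; the submitters' processing notes name GRCm38, DESeq and edgeR, without a role or version, and the treatment of reads matching several loci is not given in the sources used here. Rows were named from GENCODE annotation of GRCm38 on the strand read, which covered 11 rows deposited as antisense. Rows whose mature sequences matched with no mismatch over their whole overlap, of at least 12 bases, were summed where their mean was at least 1 CPM. Levels were CPM scaled by TMM factors (edgeR 4.0.16, R 4.3.3). Library sets came from average linkage of logit shares between such copies. Correlations, exact permutations within sets and Benjamini-Hochberg adjustment over 7875 pairs ran in Python 3.11.15 with numpy 2.4.6 and scipy 1.17.1, and were tested on simulated data. DESeq2 1.42.0 size factors, other limits, scalings and left-out libraries were alternatives.

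The members, lists and chosen miRNAs were picked with earlier results of these data known. Named were the 20 most abundant rows, 18 chosen miRNAs with their 3 highest and 3 lowest partners, the 5 most and 5 least variable, and, since no pair passed, the 10 pairs of smallest p; 24 reported pairs and the group of 18 were chosen after their values were seen. Replicate numbers only name libraries.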

Additional observations from a re-analysis of the deposited data

How the results depend on the processing

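No pair passed with DESeq2 size factors, unsummed rows, limits of 10 or 1000 CPM, Spearman's rho, a prior of 5, 4 library sets, replicates 2 and 6 left out together, or, an alternative chosen after the data were seen, replicates 2, 4 and 6 left out together. Leaving out each library in turn gave 0 to 0 pairs above 0 and 0 to 0 below. Settings with 4 sets or left-out libraries allow fewer exchanges within sets, so their smallest possible p is larger and a pass was harder to reach. That no pair passed in them therefore says little. Pooling and 2 sets allow more exchanges. Pairs passed under 3 settings: 2575 above and 46 below 0 with scaling by total counts alone, 1399 and 896 when pooled with no set term, and 130 and 1 with 2 library sets. The cause was not tested; under total counts the 2 libraries with high miR-143-3p are not rescaled. At an unadjusted p under 0.05, counts above 0 ran from 613 to 825 over single left-out libraries, and counts below 0 from 134 without replicate 11 to 396 without replicate 3. DESeq2 factors gave 695 above and 507 below, total counts 5105 and 113, pooling 1929 and 1344, 2 sets 1270 and 160, a limit of 10 CPM 2482 and 921, and one of 1000 CPM 191 and 54. Without replicates 2, 4 and 6 there were 712 and 116.

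Of 553 values of r for 24 reported pairs, 500 kept sign and side, 36 passed and 17 turned. Under total counts miR-144-3p turned with miR-22-3p (0.0456) and miR-27a-3p (0.121), and miR-143-3p with miR-145a-5p (-0.213). DESeq2 factors turned miR-133a-3p with miR-1a-3p (-0.0345). Pooling turned miR-22-3p with miR-26a-5p (-0.00165) and miR-126a-3p with miR-126a-5p (-0.189). With 4 sets, and equally without replicate 4, miR-451a-5p with miR-133a-3p was 0.391, miR-144-3p with miR-27a-3p 0.00217 and miR-133a-3p with miR-1a-3p -0.0593. The last was -0.0238 without replicate 10. Over single left-out libraries the first ran from -0.831 to 0.391, the second from -0.952 to 0.00217 and the third from -0.0593 to 0.640. Without replicates 2, 4 and 6 these were 0.687, 0.366 and -0.0884, and miR-144-3p with miR-22-3p was 0.194.

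No paired analysis was possible because there was 1 group. Counting SD was over 10% of the within-set SD for 72 of 126 miRNAs, and 12 miRNAs had an r over 0.7 in size with log2 total counts.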
